A study of Mus musculus with 2 samples.

Results

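Keratins are the intermediate filament proteins of epithelial cells, and the keratin family is described here in cells of healing mouse skin. Members were all genes whose symbol is Krt followed by a number alone, which leaves out the keratin-associated Krtap genes and lettered genes such as Krt6a. Of 19938 genes with a probe set of their own on the array, 48 were members, and each of the 48 had 1 probe set. Keratin genes resemble each other in sequence, and cross-hybridisation between them was not tested. A RefSeq gene table lists 50 genes with such symbols, and Krt81 and Krt83 were not analysed here for want of a probe set paired with them. The samples were cells labelled B-Gal + (B-Gal positive here) and cells labelled B-Gal - (B-Gal negative here), both from skin scar tissue of a TCF reporter mouse 1 week after wounding. The label is read here as presence or absence of beta-galactosidase made by a reporter of TCF, the transcription factor partner of beta-catenin in Wnt signalling. Each group had 1 array, so the differences below carry neither a replicate error nor a test, and their precision is limited by the number of arrays. The sources used here do not give how the cells were separated, how many mice were used, or their age, sex and strain. The design text speaks of homogenised microdissected tissue, and how that relates to separate cell groups is not given either.

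Keratin filaments are built from pairs of an acidic type I and a basic type II protein, and each kind of epithelium makes its own pair. Basal cells of the epidermis make keratins 5 and 14, differentiating cells above them make keratins 1 and 10, and simple epithelia make keratins 8 and 18. At the edge of a skin wound, keratinocytes add keratins 6, 16 and 17, and hair follicles use a further set in the root sheath and the shaft.

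Most keratins lay near or under the detection floor used here and differed little between the arrays, with 3 exceptions. Krt80, a type II keratin of differentiating epithelial cells, was 3.57-fold higher in B-Gal positive cells. Krt5 and Krt14, the keratin pair of basal keratinocytes, were at least 2.88-fold and 2.17-fold lower. A floor was set at 5.59 on the log2 scale, the 95th percentile of 1196 receptor genes and pseudogenes of the olfactory and vomeronasal organs, genes with no known broad use in skin. By this floor 23 of the 48 members had a value above it on at least 1 array and 12 on both arrays, while 25 lay at or under it on both. That is 47.9% of the keratins above it on at least 1 array, against 73.5% of all genes other than the receptor genes.

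Among the 23 members above the floor, 1 was higher in B-Gal positive cells by at least 2-fold (4.35%), where 9.92% of all genes above the floor were. At least 2-fold lower were 2 members (8.70%), where 12.7% of all genes above the floor were. Both keratin shares lay under the share of all genes. They rest on 1 and 2 of 23 members, too few to read the gap as a trait of the keratins. The other 20 members above the floor differed by -0.66 to 0.66 on the log2 scale. Their median difference with the 3 included, B-Gal positive minus B-Gal negative, was 0.20 on the log2 scale, beside 0.06 over all 13784 genes above the floor. Of the 23 members, 8 passed the floor on the B-Gal positive array alone and 3 on the B-Gal negative array alone, where all genes had 930 and 772. The filter thus favoured keratins higher in B-Gal positive cells. Without it the median was 0.18 over the 48 members, beside 0.11 over all 18742 genes other than the receptor genes. The 25 members under the floor had a median difference of 0.17, and the receptor genes one of 0.28. The receptor genes thus had a median shift on the same side as the keratins and no smaller.

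The receptor genes also give a scale for differences among genes at low signal, which is no replicate error. The central 95% of their differences ran from -0.44 to 0.98, and 43 of the 48 keratins lay inside that range. The 5 outside it were Krt80 on the higher side and Krt5, Krt14, Krt79 and Krt20 on the lower side. The share of all genes outside the range was not counted, so these 5 cannot be called many or few. The range is also not matched in level. Median values of the receptor genes were 3.87 in B-Gal positive and 3.60 in B-Gal negative cells, against 5.49 and 5.28 for the keratins.

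**Figure D1:**
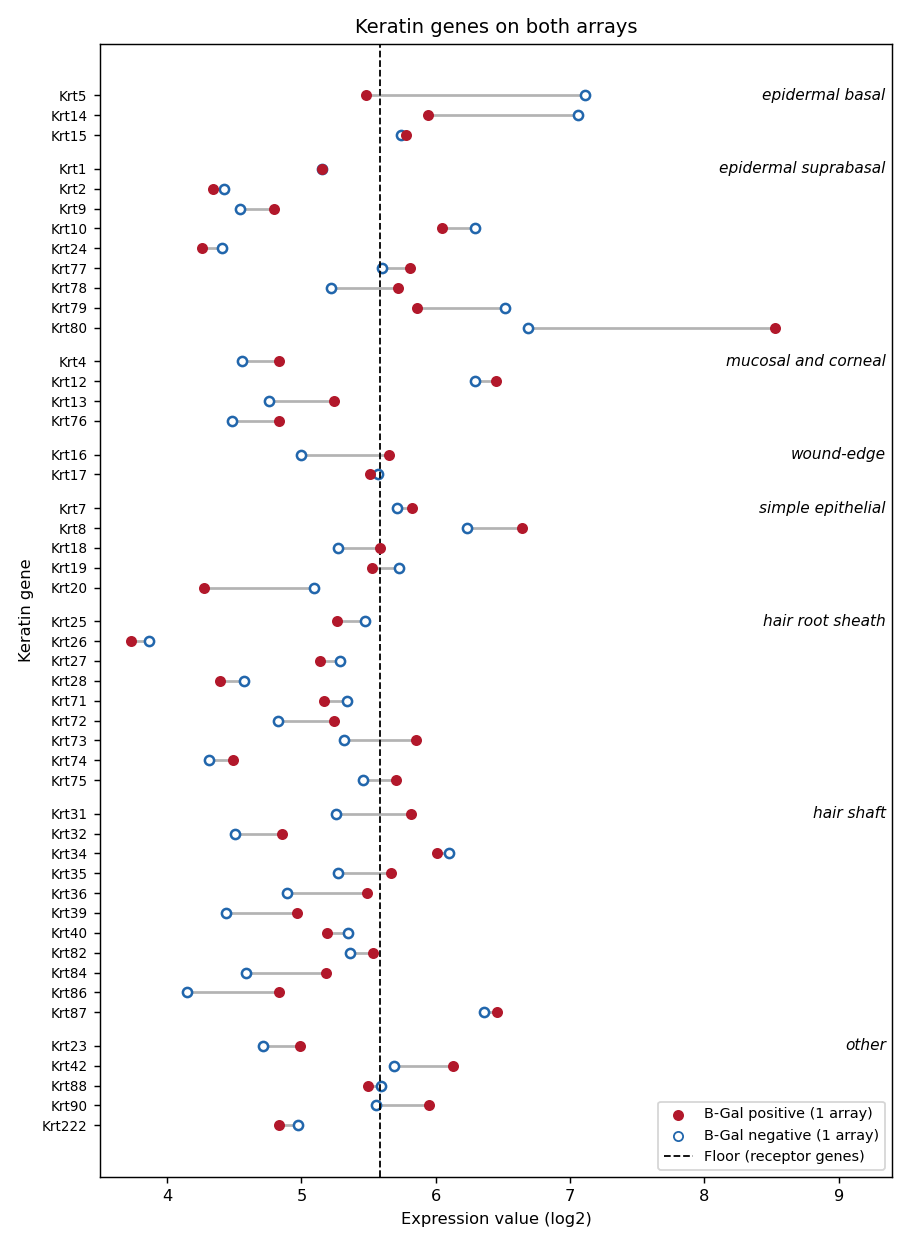
Expression values (log2, horizontal axis) of the 48 keratin genes by group, with filled red points for the B-Gal positive array, open blue points for the B-Gal negative array and a dashed line at the floor of 5.59. Krt80 has the widest gap with the B-Gal positive point on the right, Krt5 and Krt14 have the widest gaps with it on the left, and the points of 25 genes lie wholly left of the line.

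All 3 basal epidermal keratins were above the floor on at least 1 array. Krt5, the type II keratin of basal keratinocytes, had a log2 value of 5.48 in B-Gal positive cells and 7.11 in B-Gal negative cells. The value in B-Gal positive cells was under the floor, so the fold of at least 2.88 was computed against the floor. Of all genes above the floor, 7.31% had a difference further on the lower side than the -1.63 of Krt5. Krt14, its type I partner, had values of 5.94 in B-Gal positive cells and 7.06 in B-Gal negative cells, a difference of -1.12, which was -0.82 and so short of 2-fold with an offset of 32 on the linear scale. The partners thus differed in the same direction. Krt15, a type I keratin of basal cells and of the hair follicle bulge, had 5.78 in B-Gal positive cells and 5.74 in B-Gal negative cells, a difference of 0.04 that changed sign with loess or quantile normalization. It stayed close to the floor on both arrays and did not follow the Krt5 and Krt14 pair.

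Promoter windows from RefSeq (GRCm38.p6), 250 bases before to 50 after an annotated start, matched 35 of the 48 members, Krt80 not among them. The start used lay 334 to 42337 bases inside the gene's annotated span for Krt2, Krt10, Krt12, Krt14, Krt36, Krt78 and for 1 of the Krt13 windows, and these windows are included in the counts below. Shown here are Krt5, the member with the largest difference on the lower side, Krt8, a simple epithelial keratin above the floor on both arrays, and Krt34, a hair keratin whose window holds the TCF core letters. Capitals mark matches on either strand to TATAAA or ATAAAA (letters of the TATA box), CTTTGAA or CTTTGAT (core letters of TCF and LEF factor sites) and TGANTCA (AP-1 sites), and overlapping matches run together. All 3 genes lie on the minus strand, and the sequences read 5′ to 3′ along the gene. The Krt5 window is chr15:101712856-101713155, the Krt8 window chr15:102004293-102004592 and the Krt34 window chr11:100041505-100041804.
Krt5: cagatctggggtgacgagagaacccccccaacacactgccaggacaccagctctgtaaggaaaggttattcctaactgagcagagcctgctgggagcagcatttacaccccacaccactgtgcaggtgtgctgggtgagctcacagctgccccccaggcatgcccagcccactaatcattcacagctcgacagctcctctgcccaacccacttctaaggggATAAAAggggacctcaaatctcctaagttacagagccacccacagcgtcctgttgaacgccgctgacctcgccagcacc
Krt8: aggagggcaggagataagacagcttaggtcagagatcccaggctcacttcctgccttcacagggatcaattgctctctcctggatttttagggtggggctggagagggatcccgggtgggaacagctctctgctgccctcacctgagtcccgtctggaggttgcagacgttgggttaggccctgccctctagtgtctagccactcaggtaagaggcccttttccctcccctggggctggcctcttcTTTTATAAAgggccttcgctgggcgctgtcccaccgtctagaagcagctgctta
Krt34: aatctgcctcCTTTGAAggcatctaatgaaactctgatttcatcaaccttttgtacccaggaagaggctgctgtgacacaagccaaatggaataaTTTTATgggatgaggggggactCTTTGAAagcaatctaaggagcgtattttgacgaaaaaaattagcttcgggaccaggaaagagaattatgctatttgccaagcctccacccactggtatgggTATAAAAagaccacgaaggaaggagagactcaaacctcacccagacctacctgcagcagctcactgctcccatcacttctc

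The Krt5 window holds ATAAAA 29 bases before the annotated start and no match to the TCF or AP-1 letters. The Krt8 window holds TATAAA at 1 base before the start, overlapped by matches to TATAAA and ATAAAA on the opposite strand. The Krt34 window holds TATAAA 31 bases before the start, overlapped by ATAAAA, a further ATAAAA on the opposite strand, and CTTTGAA at 240 and at 133 bases before the start. The same letters were counted over all promoter windows of this length. TATAAA was in 18 of the 36 keratin windows, 2 of the 36 being of Krt13, and in 13.6% of all 32851 promoter windows. CTTTGAA or CTTTGAT was in 7 keratin windows (19.4%) and in 8.65% of all windows. The 7 were those of Krt2, Krt28, Krt31, Krt32, Krt34, Krt39 and Krt90. TGANTCA was in 2 keratin windows, both of Krt13, and in 7.81% of all windows. A match shows only that the letters are there.

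Of the 9 suprabasal and other differentiated epidermal keratins, 5 were above the floor on at least 1 array. Krt80 had a log2 value of 8.52 in B-Gal positive cells and 6.69 in B-Gal negative cells, a difference of 1.84. It was above the floor on both arrays, and 493 of the 13784 genes above the floor (3.58%) had a larger difference on this side. Krt79, a type II keratin of the upper hair follicle and sebaceous gland duct, had 5.86 in B-Gal positive cells and 6.52 in B-Gal negative cells, a 1.58-fold lower value. Krt80 and Krt79, placed in the same group, therefore differed in opposite directions. Krt10, the type I keratin of suprabasal cells, had 6.05 in B-Gal positive cells and 6.29 in B-Gal negative cells, 1.18-fold apart. Krt77 had 5.80 in B-Gal positive cells and 5.60 in B-Gal negative cells. Krt78 had 5.72 in B-Gal positive cells and 5.22 in B-Gal negative cells, the second value under the floor.

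Krt1, the type II partner of Krt10, was under the floor, with the same value of 5.15 on both arrays. Such equal values were found for 614 of the 28853 probe sets (2.13%). Krt2, Krt9 and Krt24 were under the floor on both arrays as well, with differences from -0.15 to 0.25. Krt9 is the type I keratin of palm and sole skin, and Krt2 a type II keratin of the upper epidermis.

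The wound-edge keratins that belong to the family by its rule are Krt16 and Krt17, type I keratins that keratinocytes turn on after injury. Krt16 had a log2 value of 5.66 in B-Gal positive cells and 4.999 in B-Gal negative cells, and was at least 1.05-fold higher against the floor. Krt17 had 5.51 in B-Gal positive cells and 5.57 in B-Gal negative cells, both under the floor. The lettered genes Krt6a and Krt6b, type II partners of both and no members, were under the floor on both arrays too. Krt6a had 5.14 in B-Gal positive cells and 4.89 in B-Gal negative cells, and Krt6b had 4.22 in B-Gal positive cells and 4.58 in B-Gal negative cells. No wound-edge keratin was thus clearly above the floor on either array at 1 week.

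Of the 5 simple epithelial keratins, 4 were above the floor on at least 1 array, and none differed by 2-fold. Krt8, the type II keratin of simple epithelia whose promoter is shown above, had a log2 value of 6.64 in B-Gal positive cells and 6.23 in B-Gal negative cells, a 1.33-fold higher value. Its partner Krt18 had 5.59 in B-Gal positive cells and 5.27 in B-Gal negative cells. Krt18 was the member just above the floor, at 5.587, and Krt17 the one just under it. Krt7, a type II keratin of glandular and ductal epithelia, had 5.82 in B-Gal positive cells and 5.71 in B-Gal negative cells, and its difference of 0.11 changed sign with loess. Krt19, a small type I keratin of simple epithelia and of follicle stem cells, had 5.53 in B-Gal positive cells and 5.73 in B-Gal negative cells. All of these lay within 0.5 of the floor except Krt8 on both arrays. Krt20, a type I keratin of the intestinal lining, was under the floor with 4.28 in B-Gal positive cells and 5.09 in B-Gal negative cells, and no fold is given.

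Hair keratins made up 20 members, of which 6 were above the floor on at least 1 array, 2 on both, and none differed by 2-fold. Among the 11 of the hair shaft, Krt87 had log2 values of 6.46 in B-Gal positive cells and 6.36 in B-Gal negative cells. Krt34 had 6.01 in B-Gal positive cells and 6.10 in B-Gal negative cells. Krt31 had 5.81 in B-Gal positive cells and 5.26 in B-Gal negative cells, and Krt35 had 5.66 in B-Gal positive cells and 5.27 in B-Gal negative cells. The type I hair keratins Krt31 and Krt35 thus passed the floor on the B-Gal positive array alone, by less than 0.25. The other shaft keratins (Krt32, Krt36, Krt39, Krt40, Krt82, Krt84 and Krt86) were under the floor on both arrays.

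Among the 9 keratins of the root sheath, Krt73 had 5.85 in B-Gal positive cells and 5.32 in B-Gal negative cells. Krt75, a type II keratin of the companion layer of the hair follicle, had 5.71 in B-Gal positive cells and 5.46 in B-Gal negative cells. The inner root sheath keratins Krt25, Krt26, Krt27, Krt28, Krt71 and Krt72, and Krt74, which RefSeq lists as a transcribed pseudogene, were under the floor on both arrays. Over all 20 hair keratins the differences ran from -0.21 to 0.68.

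Of the 4 keratins of mucosa and cornea, Krt12, the type I keratin of the corneal epithelium, was above the floor, with 6.45 in B-Gal positive cells and 6.29 in B-Gal negative cells. Krt4, Krt13 and Krt76, keratins of mouth and oesophagus linings, were under it on both arrays. Further genes above the floor have no site assigned here. Krt42 had 6.13 in B-Gal positive cells and 5.69 in B-Gal negative cells, Krt90 had 5.95 in B-Gal positive cells and 5.55 in B-Gal negative cells, and Krt88 had 5.50 in B-Gal positive cells and 5.59 in B-Gal negative cells. Krt23 and Krt222 were under the floor on both arrays.

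**Figure D2:**
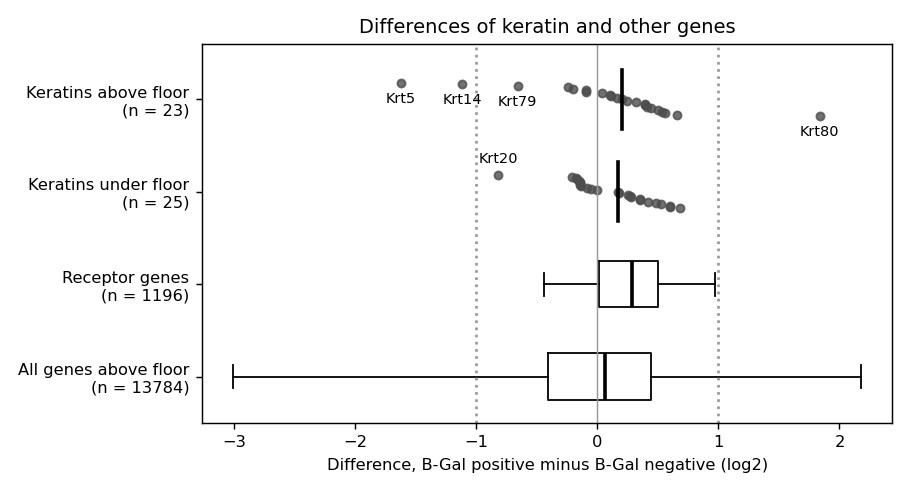
Differences (log2, B-Gal positive minus B-Gal negative) of the 23 keratins above the floor and the 25 under it as points with a bar at the median, and of 1196 receptor genes and 13784 genes above the floor as boxes with whiskers over the central 95%. Dotted lines mark 2-fold, which only Krt80, Krt5 and Krt14 pass among the keratins, and the receptor whiskers end at -0.44 and 0.98.

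By type, the 26 type I members had a median difference of -0.01 and the 22 type II members one of 0.23. In B-Gal positive cells 13 type I members had a higher value and 13 a lower one, and 16 type II members had a higher value and 5 a lower one, Krt1 being equal. With loess the count over all 48 members was 25 higher and 23 lower, where the deposited values gave 29 higher and 18 lower. Of the 18742 genes other than the receptor genes, 10885 had a higher deposited value in B-Gal positive cells and 7559 a lower one. Of the 1196 receptor genes, 906 had a higher value and 220 a lower one. A lean to higher values was thus not particular to the keratins. The type I genes form a cluster on mouse chromosome 11 and the type II genes one on chromosome 15, with Krt18, a type I gene, at the end of the chromosome 15 cluster beside Krt8. The members past 2-fold stood alone in this order. Krt80 lies at the outer end of the chromosome 15 cluster, and the nearest keratin genes, Krt7 and Krt87, differed by 0.11 and 0.10 on the log2 scale. On its other side the nearest protein-coding genes, Smim41 and Atg101, differed by 0.45 and 0.01. Krt71, next to Krt5, differed by -0.17, and Krt16, next to Krt14, by 0.66.

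**Figure D3:**
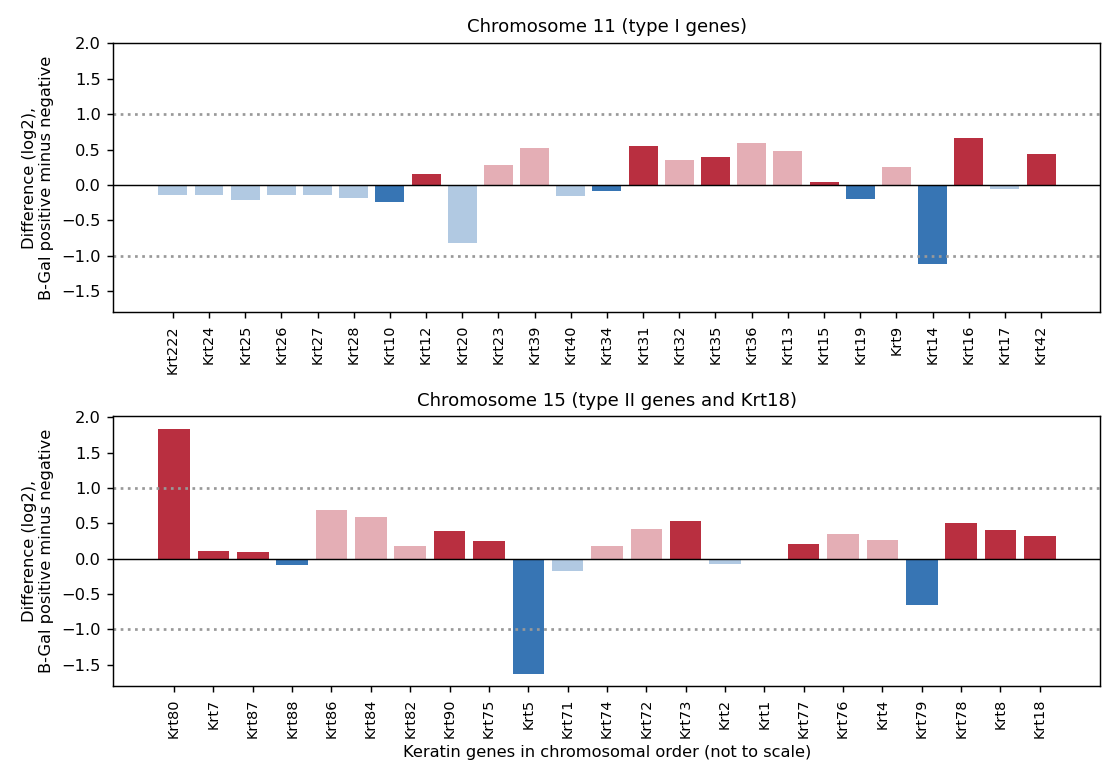
Differences (log2, B-Gal positive minus B-Gal negative) of the keratin genes as bars in chromosomal order, not to scale, with pale bars for genes under the floor on both arrays and dotted lines at 2-fold. Krt80, Krt5 and Krt14 pass the dotted lines while the keratin genes on either side of them do not.

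Genes that work with keratins were set beside the family. Of all genes above the floor, 9.92% were at least 2-fold higher and 12.7% lower. The lists of related genes are short, so 0 or 1 gene past 2-fold in a list is not set apart from these shares. Of 14 desmosome and keratin linker genes, 9 were above the floor, 1 was lower by at least 2-fold and 0 were higher, and the median difference was -0.05. The lower one was Dst, which encodes the linker dystonin, with log2 values of 7.35 in B-Gal positive cells and 9.09 in B-Gal negative cells. Pkp2, Perp and Jup, a plakophilin, a desmosome-associated membrane protein and plakoglobin, differed by -0.57, -0.43 and 0.42. Pkp2 and Perp were under the floor on the B-Gal positive array, so against the floor they were at least 1.30-fold and 1.18-fold lower. Of 7 hemidesmosome and basal keratinocyte genes, all above the floor on at least 1 array, 1 was at least 2-fold higher and 0 lower. It was the integrin gene Itga6, with 9.65 in B-Gal positive cells and 8.02 in B-Gal negative cells. Itgb4, whose product pairs with that of Itga6 in hemidesmosomes, had 6.06 in B-Gal positive cells and 6.31 in B-Gal negative cells. Itga3 and Lama3 differed by 0.38 and 0.29, and Lama3, under the floor on the B-Gal negative array, was at least 1.09-fold higher against it.

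Of 12 cornified envelope genes 7 were above the floor, and Sbsn, the suprabasin gene, was the only one past 2-fold, with 6.33 in B-Gal positive cells and 8.07 in B-Gal negative cells. Sprr1b, Tgm3 and Hrnr, genes of the cornified layer, differed by 0.78, 0.57 and 0.43. Sprr1b and Tgm3 were under the floor on the B-Gal negative array, so against the floor they were at least 1.17-fold and 1.24-fold higher. Among 10 epithelial surface genes 4 were above the floor and 0 were past 2-fold. Epcam, a surface gene of simple epithelia and follicle cells, was under the floor with 4.98 in B-Gal positive cells and 5.15 in B-Gal negative cells. Cdh1, the E-cadherin gene, had 6.19 on both arrays. The claudin genes Cldn1 and Cldn4 and the stratifin gene Sfn differed by -0.79, 0.52 and 0.30. Cldn1 was under the floor on the B-Gal positive array, so against the floor it was at least 1.28-fold lower. Of 10 hair follicle genes 6 were above the floor, and Sox9, a transcription factor gene of follicle stem cells, was the only one past 2-fold, with 6.38 in B-Gal positive cells and 7.68 in B-Gal negative cells.

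Intermediate filament genes outside the keratin family were compared in the same way. Vim, the vimentin gene of mesenchymal and blood cells, had log2 values of 13.11 in B-Gal positive cells and 13.19 in B-Gal negative cells, a difference of -0.08. Of 15 such genes 10 were above the floor, with 3 at least 2-fold lower and 0 higher. These were Nes (nestin), at least 2.81-fold lower, Des (desmin), 2.99-fold lower, and Synm (synemin), 2.21-fold lower. Of all genes above the floor, 12.7% were at least 2-fold lower and 9.92% higher.

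Each macrophage and fibroblast marker had a larger absolute difference than any keratin. All 12 macrophage markers were higher in B-Gal positive cells by at least 2-fold, with a median difference of 4.72 and a summed linear value of 45688 in B-Gal positive cells against 3133 in B-Gal negative cells. Among them Cd163 and Ms4a7 were under the floor on the B-Gal negative array. All 12 fibroblast markers were at least 2-fold lower, with a median of -3.94 and sums of 15736 in B-Gal positive cells and 93537 in B-Gal negative cells, and none of them was under the floor on either array. Of 8 endothelial markers 7 were at least 2-fold lower, with a median of -1.89 and sums of 880.3 in B-Gal positive cells and 2774 in B-Gal negative cells. The part of these shifts in the Krt80, Krt5 and Krt14 differences was not tested. Fewer cells of a type and less RNA per cell cannot be told apart in such samples.

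**Figure D4:**
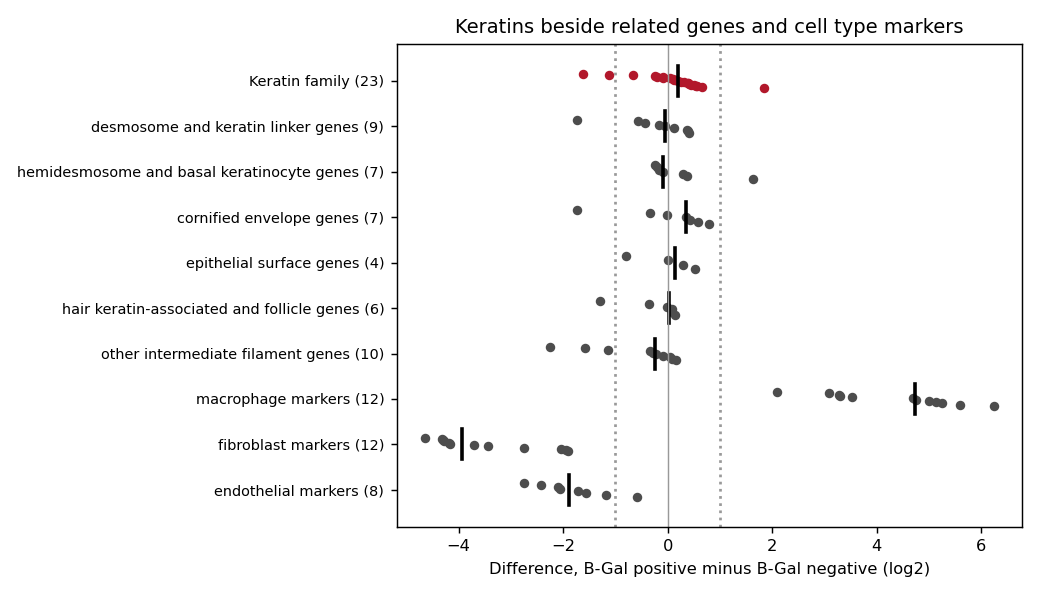
Differences (log2, B-Gal positive minus B-Gal negative) of genes above the floor, 1 point per gene with a bar at the median, for the keratin family (red) and 9 lists of related genes and cell type markers, with the number of genes in brackets. The keratin points centre near 0 with a median of 0.20, while macrophage markers lie around 4.72 and fibroblast markers around -3.94.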

How the data were processed

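Total RNA labelled with biotin was hybridised to Affymetrix Mouse Gene 1.0 ST arrays, 1 per group, per the labels and the design text. Each probe set has 1 value per array in the deposited table, and its values were read as log2 from their range of 1.16 to 14.8. Partek is named without version or role, per the submitters' processing notes. The sources used here do not give the log base or how the values were summarised, corrected for background and normalised. Array medians were 6.16 for B-Gal positive and 6.18 for B-Gal negative.

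Of 28853 probe sets, 21789 name 1 gene in the platform annotation, 1621 name several and 5443 are not listed. Symbols were checked by gene ID against RefSeq (GRCm38.p6), which matched 21698. Of several probe sets of a gene, the one with the highest mean was used. Differences were computed without added scaling, and no p-value was computed. Every keratin above the floor was named, and up to 4 members of each related list with the largest absolute difference, macrophage, fibroblast and endothelial lists being given as sums; Krt6a, Krt6b, Vim and Epcam were fixed. The members and lists were chosen with earlier results of these data known. Python 3.11.15, pandas 2.3.3, numpy 2.4.6 and statsmodels 0.14.6 were used. The alternatives were other scalings (array medians, loess of span 0.4 with 3 iterations, quantiles), an offset of 32 on the linear scale, other filters on low values, the mean over probe sets, and thresholds of 1.5-fold and 4-fold.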

Additional observations from a re-analysis of the deposited data

How the results depend on the processing

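Krt80 was the member at least 2-fold higher, and Krt5 and Krt14 the members at least 2-fold lower, under array centring, loess, quantile normalization, no filter on low values, both stricter filters, values raised to the floor and the mean over probe sets. With the offset only 1 member, Krt5, was at least 2-fold lower, and Krt14 differed by -0.82. At 1.5-fold 2 members were higher, with Krt16 added, and 3 lower, with Krt79 added; at 4-fold 0 were higher and 0 lower. Differences ranged from 1.57 to 1.86 for Krt80, from -1.73 to -1.15 for Krt5 and from -1.20 to -0.82 for Krt14. The keratin median ran from -0.07, with a stricter floor from the receptor genes (percentile 99), which leaves 8 members, to 0.25. With loess the median over all genes above the floor was -0.04, against 0.06 with the deposited values. Loess turned the sign of Krt7, Krt15, Krt74 and Krt82, and quantile normalization that of Krt15 and Krt74. The wound-edge median was 0.66 with the deposited values and 0.069 with values raised to the floor, in both cases from Krt16 alone. It was 0.10 with loess and 0.17 with quantile normalization. The floor was then 5.54 and 5.56, under the deposited 5.57 of Krt17 in B-Gal negative cells, so Krt17 may be counted too. Those 2 medians therefore need not show a change in Krt16 itself. The root sheath median was -0.14 without the filter on low values, against 0.39. The suprabasal median was -0.24 with that stricter floor and 0.59 when genes had to pass the median of all genes, against 0.20, both over fewer genes. Keratin group medians listed as changed are those that moved by over 0.37. That size is the SD of single receptor genes' differences, which is neither a replicate error nor the error of a median. Some medians of related lists moved by more than this too. They ran from -0.20 to 1.63 for hemidesmosome genes, against -0.09, and from -0.83 to 0.05 for hair follicle genes, against 0.03. Desmosome and linker genes ran from -0.16 to 0.37, against -0.05, and macrophage markers from 4.33 to 4.75, against 4.72. The 1.63 is the difference of Itga6 alone, and the -0.83 and 0.37 also come from stricter filters that leave fewer genes. These 3 values are thus no shifts of whole lists. No paired analysis was possible because each group has 1 array. Values close to the floor limit what the arrays can show for most keratins.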

Other observations

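The Krtap genes, which encode keratin-associated proteins of the hair shaft and are no members of the family, had 44 genes with a probe set of their own. Of these 10 were above the floor on both arrays, 8 on the B-Gal positive array alone and 0 on the B-Gal negative array alone. Over the 18742 genes other than the receptor genes, these single-array counts were 930 and 772. Passing the floor thus favoured Krtap genes higher in B-Gal positive cells. Krtap5-2 was the only one at least 2-fold higher, with 7.13 in B-Gal positive cells and 5.86 in B-Gal negative cells, and 0 were lower. It was named after its value was seen. Of all genes above the floor, 9.92% were at least 2-fold higher and 12.7% lower. Over all 44 genes, 41 had a higher value in B-Gal positive cells and 3 a lower one, with a median of 0.48 on the log2 scale, beside 0.28 over the receptor genes. A higher value was also found for 906 of the 1196 receptor genes and for 10885 of the 18742 other genes. The lettered hair keratin gene Krt33b had 7.05 in B-Gal positive cells and 6.77 in B-Gal negative cells, and Krt33a was under the floor on both arrays.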
